A study of Mus musculus with 8 samples.

Results

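The 10 genes followed here let a cell sense interleukin-1 (IL-1) and interferon-γ (IFN-γ) and were measured in single cells of cultured mouse islets. They are the receptor chains Il1r1, Il1rap, Ifngr1 and Ifngr2, the inhibitory receptor Sigirr, and the adaptor, kinases and ubiquitin ligase Myd88, Irak1, Irak2, Irak3 and Traf6. They were chosen by symbol, as 10 of the 30406 genes listed for every library, with earlier results of these data known. In untreated islets Il1r1 was higher in β-cells than in δ-cells or in any of 3 non-endocrine classes, whereas Ifngr1, Ifngr2, Irak2 and Myd88 were higher in the non-endocrine cells than in β-cells. After IL-1β and IFN-γ, Il1r1 fell 2.32-fold in β-cells and 6 other members rose there, Irak2 by 6.88-fold and Ifngr2 by 5.56-fold. In that comparison 23.8% of all genes tested rose and 22.5% fell. Of the 6, Irak3 was tested only through the cytokine groups. The increase of Ifngr2 was called in β-, α- and δ-cells, but δ-cells had 1 cytokine library and lost the call with DESeq2. In β-cells the increase differed from the change in macrophages, endothelial and mesenchymal cells.

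IL-1β binds IL1R1, which then recruits the accessory chain IL1RAP. The Toll/IL-1 receptor (TIR) domains of the pair gather MYD88, the IRAK kinases and TRAF6, a path that leads to activation of NF-κB. IFN-γ binds IFNGR1, which works together with IFNGR2 to signal through JAK1 and JAK2, and in rodent β-cells the joint action of the 2 cytokines is known to induce Nos2, the gene for inducible nitric oxide synthase.

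Islets of male C57BL/6 mice were pooled, divided over 4 conditions and kept in culture as intact islets before dispersal, and the whole procedure was done for 2 pools, which are the 2 replicates. The conditions were untreated, IL-1β with IFN-γ for 18 h (cytokines), the same cytokines with NMMA for 18 h (cytokines + NMMA), and NMMA alone for 18 h. NMMA is an inhibitor of nitric oxide synthases. Each of the 8 droplet libraries held 26549922 to 50731370 UMIs (counted molecules), the replicate is the pool and not the mouse, and all cells of an islet met the agents together.

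The filter on genes and mitochondrial share kept 10876 of 17426 barcodes, of which 8110 fell into 6 classes whose clusters carried the fixed markers: 6320 β-like, 665 α-like, 296 δ-like, 324 macrophage-like, 283 endothelial-like and 222 mesenchymal-like cells, written here as β-cells, α-cells and so on. The 10 members and the lists of related genes were kept out of the genes used for clustering. Of the rest, 2203 cells in unnamed clusters had few UMIs (medians of 585 to 1138 per library), and 797 of these came from untreated replicate 2. Over the 28 pairs of libraries, 14 kept barcodes were shared. The cytokine groups and the groups without cytokines mostly filled different clusters of the same class: β-cells of untreated and NMMA-treated islets lay mainly in clusters 0 and 1 and those of cytokine-treated islets in clusters 2, 5, 9 and 10. Levels are CPM (counts-per-million), the UMIs of a gene relative to all UMIs summed over the cells of a class in 1 library, with TMM scaling, so a sum cannot tell fewer cells that use a gene from less RNA per cell. Values were tested with edgeR's quasi-likelihood F test, and a change was called at a Benjamini-Hochberg adjusted p under 0.05 over all genes tested in the comparison. Where the level of a gene is compared, it is compared between cells or conditions and never with that of another gene, since UMIs at the 3′ end carry no common scale between genes.

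The stretch before the start of transcription is shown for Il1r1, the 1 member that fell in β-cells, and for Ifngr2, Irak2 and Myd88, whose increases rest on the most UMIs among the 4 members that rose furthest there. The windows run from 124 to 25 bases before the start in the RefSeq promoter table (GRCm38.p6), which had entries for 9 of the 10 members, and capitals mark matches to the motifs searched.
Ifngr2, chr16:91546935-91547034, + strand: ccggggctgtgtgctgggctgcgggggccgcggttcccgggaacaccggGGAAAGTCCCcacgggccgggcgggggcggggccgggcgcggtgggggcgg
Irak2, chr6:113638343-113638442, + strand: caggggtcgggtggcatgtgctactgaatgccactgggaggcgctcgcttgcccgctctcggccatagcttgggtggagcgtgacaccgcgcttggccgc
Myd88, chr9:119340043-119340142, - strand: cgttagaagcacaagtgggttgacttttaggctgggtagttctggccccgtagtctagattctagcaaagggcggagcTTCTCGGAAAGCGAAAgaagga
Il1r1, chr1:40224956-40225055, + strand: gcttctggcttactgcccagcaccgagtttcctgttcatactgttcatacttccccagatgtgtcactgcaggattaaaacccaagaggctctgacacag

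The motifs were searched on both strands in the 250 bases before each start: the interferon-γ activated site (TTCNNNGAA), the interferon-stimulated response element (TTTC, any 2 bases, TTTC) and the NF-κB site. Of 32851 promoters in the table, 7.02% held the first, 2.98% the second and 7.25% the third. Ifngr2 held an NF-κB match 75 to 66 bases before its start. Myd88 held an interferon-γ activated site at 46 to 38 bases and, overlapping it, an interferon-stimulated response element at 40 to 31 bases, in a window that lies within an intron of a longer annotated transcript. The stretches of Irak2 and Il1r1 shown held no match. A second start listed for Il1r1 had an NF-κB match 232 to 223 bases before it, both starts of Irak1 had 1, and Irak2, Irak3, Ifngr1, Il1rap and Traf6 had none. These matches describe the letters only.

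The first question was how the members stand in each cell type before cytokines. For it, all 6 classes of the 2 untreated libraries were scaled together and compared with the library as a term. Il1r1 (ENSMUSG00000026072, chr1:40225080-40317257), the signalling receptor for IL-1, stood at 338.6 and 290.0 CPM in β-cells of replicates 1 and 2 and at 225.9 and 218.6 CPM in α-cells. The level was 81.6 and 63.1 CPM in δ-cells, 53.1 and 28.0 CPM in endothelial cells, and 133.0 and 68.1 CPM in mesenchymal cells. In macrophages it was 0 and 16.6 CPM, from 0 and 10 UMIs. With this scaling the 2 libraries of β-cells lay above those of every other class. Relative to all UMIs, with no TMM, α- and β-cells overlapped. There Il1r1 had 285 of 1237191 and 379 of 1776039 UMIs in α-cells. In β-cells it had 8137 of 35185010 and 3211 of 15509832. Against β-cells the log2 difference was -2.11 ± 0.25 (SE) in δ-cells (adjusted p = 8.21e-07), -4.83 ± 0.38 in macrophages (2.73e-10), -3.00 ± 0.26 in endothelial cells (1.06e-09) and -1.70 ± 0.26 in mesenchymal cells (9.19e-06). That of α-cells, -0.49 ± 0.19, was not called (adjusted p = 0.065). Neighbours further down the order were α-cells above mesenchymal cells (adjusted p = 0.00103), mesenchymal above δ-cells (0.344, not called), δ- above endothelial cells (0.0352) and endothelial cells above macrophages (0.0107).

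In cells thinned to 2000 UMIs a UMI of Il1r1 was found in 35% of 1659 untreated β-cells in replicate 1 and in 28.5% of 583 in replicate 2 (exact 95% intervals 32.7 to 37.4% and 24.8 to 32.3%, counting error only). In α-cells the shares were 28.7% of 94 and 40.7% of 91 cells, below β-cells in replicate 1 and above them in replicate 2. None of 29 and of 57 macrophages had one, with upper limits of 11.9% and 6.3%, and without thinning the macrophage shares were 0% and 6.9% against 93.3% and 84.7% of β-cells. The median UMIs per cell were 20430 to 29819 in the β-cells of all 8 libraries and 8027 to 15166 in the macrophages.

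The other chain of the IL-1 receptor, Il1rap (ENSMUSG00000022514, chr16:26581704-26730117), was counted with 0 to 38 UMIs per class and untreated library and was not tested between classes. Its mean was 2.06 ± 0.670 CPM in β-cells (SD, n = 2 here and for the other means) and 3.32 ± 0.205 CPM in α-cells. Sigirr (ENSMUSG00000025494, chr7:141091175-141100572), a TIR-domain receptor that restrains IL-1 signalling, was also below the filter. It stood at 13.6 ± 0.569 CPM in δ-cells and 11.5 ± 0.220 CPM in β-cells, and no UMI of it was found in untreated mesenchymal cells.

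The IFN-γ receptor chains ran the other way. Ifngr2 (ENSMUSG00000022965, chr16:91547072-91565623), the chain that IFNGR1 needs for signalling, stood at 7.66 and 6.77 CPM in β-cells, 6.34 and 13.3 CPM in α-cells and 13.95 and 10.52 CPM in δ-cells. In macrophages it was 137.2 and 122.6 CPM, in mesenchymal cells 136.1 and 98.9 CPM and in endothelial cells 123.0 and 95.1 CPM. No library of an endocrine class reached the lowest non-endocrine one. Against β-cells it was 18.0 times higher in macrophages (log2 difference 4.17 ± 0.24, adjusted p = 2.42e-18), 15 times in endothelial and 16.0 times in mesenchymal cells, while α- and δ-cells were not called (0.242 and 0.207). Ifngr1 (ENSMUSG00000020009, chr10:19591949-19610229), the ligand-binding chain, had means of 103 ± 13.5 CPM in macrophages, 80.4 ± 4.47 in endothelial cells, 34.1 ± 4.55 in mesenchymal cells, 21.8 ± 1.06 in δ-cells, 14.0 ± 2.38 in β-cells and 11.4 ± 2.65 in α-cells. It was 7.42, 5.71 and 2.46 times higher in macrophages, endothelial and mesenchymal cells than in β-cells, and none of the neighbours mesenchymal, δ-, β- and α-cells in that order differed (adjusted p of 0.261, 0.123 and 0.53).

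Among the proteins that carry the signal on, Myd88 (ENSMUSG00000032508, chr9:119335934-119341411), the adaptor that binds the receptor, averaged 40.4 ± 8.55 CPM in macrophages, 32.9 ± 0.681 in endothelial cells and 22.7 ± 7.25 in mesenchymal cells, and 11.2 ± 4.38, 10.2 ± 1.52 and 5.37 ± 7.59 CPM in α-, β- and δ-cells. Irak2 (ENSMUSG00000060477, chr6:113638467-113695026), which is thought to keep the signal going, averaged 53.6 ± 12.5 CPM in macrophages and 3.03 ± 0.0695 CPM in β-cells, a difference of 16.4 times. Irak1 (ENSMUSG00000031392, chrX:74013914-74023918), another IRAK kinase, had the opposite order, with 155 ± 14.8 CPM in β-cells, 121 ± 0.224 in δ-cells, 95.3 ± 1.41 in α-cells and 55.9 ± 11.1 in endothelial cells. No pair of neighbours in its order was called. Relative to all UMIs, with no TMM, Irak1 was higher in δ-cells than in β-cells. It had 113 of 820004 and 46 of 400157 UMIs in δ-cells. In β-cells it had 3983 of 35185010 and 1603 of 15509832. Irak3 (ENSMUSG00000020227, chr10:120141648-120202130), an inhibitor of the complex, was counted with only 18 and 2 UMIs in the β-cells of the 2 libraries (0.465 ± 0.402 CPM) and averaged 3.35 ± 3.11 CPM in α-cells, 9.79 ± 4.74 in δ-cells and 8.79 to 10.2 CPM in the non-endocrine classes. Traf6 (ENSMUSG00000027164, chr2:101678429-101701669), the ubiquitin ligase that follows the kinases, ranged only from 9.73 ± 2.55 CPM in α-cells to 22.0 ± 2.50 CPM in β-cells.

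Of the 8 members that passed the filter, 7 differed from β-cells in macrophages, in endothelial cells and in mesenchymal cells. In each of these Ifngr1, Ifngr2, Myd88, Irak2 and Irak3 were higher and Il1r1 and Irak1 lower, where 53.9%, 60.3% and 49.4% of all genes tested differed. In α-cells 3 of 8 differed, with Irak3 higher by 2.50 ± 0.95 on the log2 scale and Irak1 and Traf6 lower by 0.69 ± 0.17 and 1.13 ± 0.30, beside 28.1% of all genes. In δ-cells 2 of 8 differed, Il1r1 and Irak3, beside 19.4% of all genes. The α-cell result depended on the terms of the fit: without the replicate block, which here is the library, 1 of its 3 calls (Traf6) was kept, and scaled by total UMIs, which moved the median of all genes by 0.49 on the log2 scale, the calls of Irak1 and Traf6 were lost. Ifngr1, Ifngr2, Myd88, Irak2 and Irak3 lay below the cutoff of the filter in β-cells and entered through other classes, so the counts of members higher than in β-cells support nothing by themselves. With no filter each of these calls but Myd88 in mesenchymal cells was kept. The mesenchymal calls of Irak1 and Myd88 were the only others of these lost in an alternative.

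**Figure D1:**
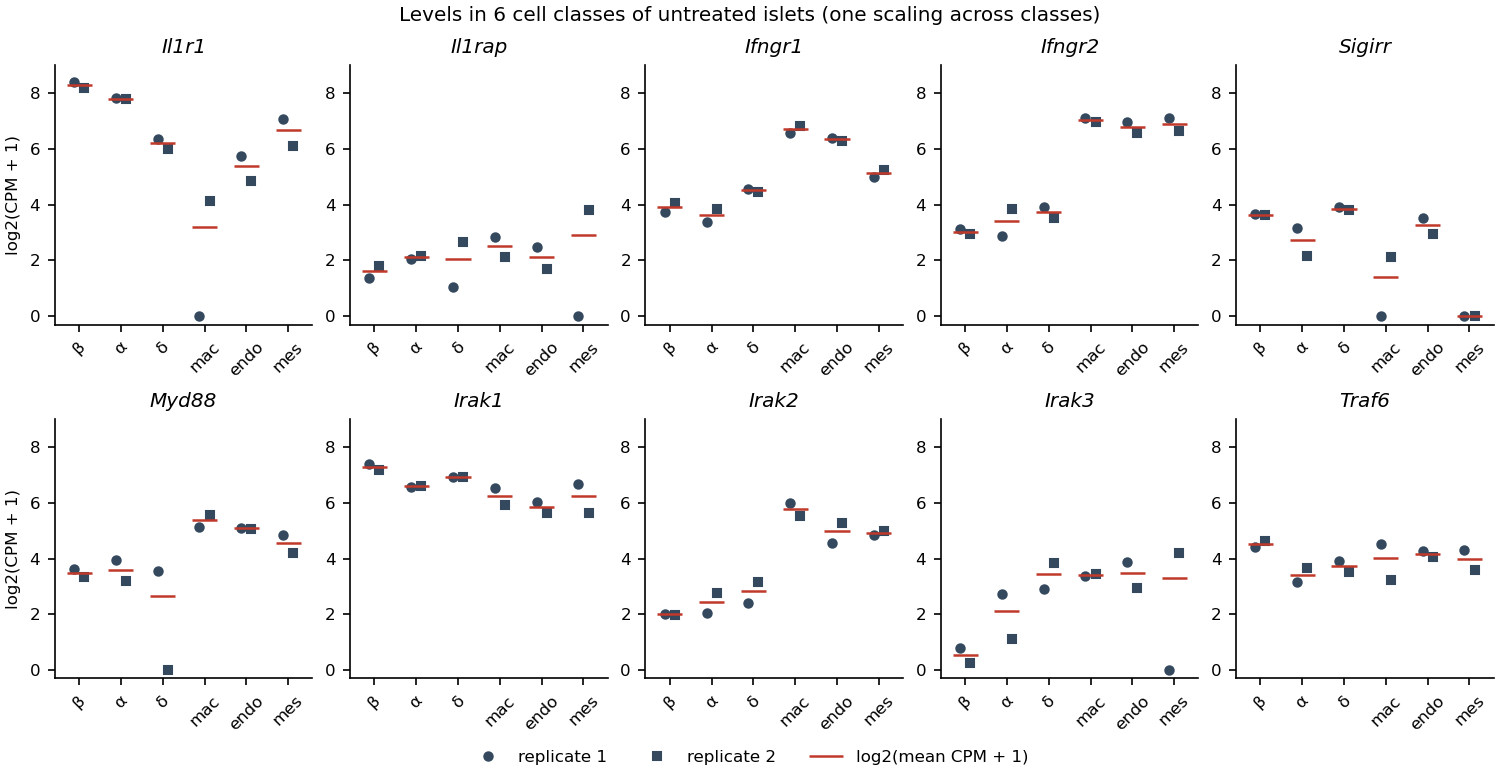
Level of each of the 10 members in 6 classes of untreated islet cells, as log2(CPM + 1) with all classes scaled together. Circles are replicate 1, squares replicate 2, and the line is the log2 of the mean CPM + 1 (n = 2); mac, endo and mes are macrophages, endothelial and mesenchymal cells. With this scaling the means of Il1r1 and Irak1 are highest on the left, in β-cells, while Ifngr1, Ifngr2, Myd88 and Irak2 are highest in the 3 non-endocrine classes.

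The second question was how the members change with cytokines, and levels from here on are scaled within a class. In β-cells 7 of the 10 members changed with cytokines against untreated islets, 6 up and 1 down. Of all 12762 genes tested 46.3% changed, 23.8% up and 22.5% down. The 6 that rose include Irak3, which passed the filter only through the cytokine groups. The members were also chosen with earlier results of these data known, so these counts are a description only. The median log2 change of the 10 was 0.91, beside 0.00 over all genes. Scaled by total UMIs the same 7 were called, although that scaling moved the median of all genes by -0.22 on the log2 scale and the share of higher among all calls from 51.3% to 33.5%.

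Il1r1 stood at 226 and 195 CPM in untreated β-cells of replicates 1 and 2, at 89.7 and 91.6 CPM with cytokines, at 104 and 122 CPM with cytokines + NMMA, and at 193 and 157 CPM with NMMA alone. Both cytokine groups lay below every library without cytokines. With cytokines Il1r1 fell by 1.22 ± 0.16 on the log2 scale (adjusted p = 0.000357) and with cytokines + NMMA by 0.90 ± 0.16 (0.00332).

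Il1rap stood at 1.06 and 1.70 CPM in untreated β-cells and at 2.18 and 3.26 CPM with cytokines, from 38, 28, 57 and 48 UMIs. Its log2 change of 1.0 ± 0.41 was not called (adjusted p = 0.0700), but with the replicate block it was (0.99 ± 0.27, adjusted p = 0.00334). Sigirr stood at 7.81 and 7.65 CPM untreated, 8.89 and 8.02 CPM with cytokines and 12.7 and 11.04 CPM with cytokines + NMMA. Both libraries of cytokines + NMMA lay above all others, and Sigirr rose only in that comparison with untreated cells (log2 change 0.62 ± 0.15, adjusted p = 0.0169, against 0.13 ± 0.15 and 0.504 with cytokines alone). That call was lost with DESeq2 and without any 1 of 3 libraries, the highest adjusted p being 0.136 without replicate 1 of cytokines + NMMA.

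Ifngr2 stood at 5.11 and 4.55 CPM in untreated β-cells, 27.7 and 26.4 CPM with cytokines, 36.6 and 33.0 CPM with cytokines + NMMA, and 8.20 and 4.60 CPM with NMMA alone. It rose by 2.47 ± 0.23 on the log2 scale with cytokines (adjusted p = 7.79e-05) and by 2.84 ± 0.24 with cytokines + NMMA (5.31e-05). Ifngr1 stood at 8.25 and 10.6 CPM untreated, 17.8 and 15.2 CPM with cytokines and 19.1 and 17.7 CPM with cytokines + NMMA. Both cytokine groups lay above the untreated libraries and overlapped each other, and NMMA alone, at 11.02 and 14.8 CPM, lay between. It rose by 0.82 ± 0.19 (adjusted p = 0.00743) and 0.97 ± 0.19 (0.00635), calls that were lost without untreated replicate 1 (adjusted p of 0.0666 and 0.0677). The IFN-γ receptor was thus the pair of chains in which both rose in β-cells, and the IL-1 receptor the pair in which the ligand-binding chain fell.

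Irak2 showed the largest change of the 10 with cytokines, though not with cytokines + NMMA. It went from 2.056 and 2.002 CPM untreated to 15.6 and 12.4 CPM with cytokines and 9.82 and 9.05 CPM with cytokines + NMMA, with 1.49 and 1.40 CPM for NMMA alone. It rose by 2.78 ± 0.19 (adjusted p = 1.37e-05) and 2.21 ± 0.19 (5.31e-05) on the log2 scale. Myd88 went from 7.53 and 6.13 CPM to 22.6 and 16.6 CPM with cytokines and 21.1 and 17.8 CPM with cytokines + NMMA, a rise of 1.51 ± 0.20 (0.000424) and 1.503 ± 0.203 (0.000806). The ranges of Irak2 and of Myd88 with cytokines lay clear of those without them.

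Irak3, the inhibitor, rose from 0.500 and 0.121 CPM to 1.76 and 2.17 CPM with cytokines and 1.33 and 2.90 CPM with cytokines + NMMA. The log2 change was 2.45 ± 0.59 (adjusted p = 0.00842) and 2.54 ± 0.60 (0.0144), from 2 to 46 UMIs per library, the widest errors among the 7. All untreated and NMMA libraries of Irak3 lay below the cutoff of the filter (0.575 CPM before scaling), so it was tested only through the groups where it was high, and its place among the 7 supports nothing. With no filter its log2 change with cytokines was 2.41 (adjusted p = 1.01e-06), and the second call was lost without untreated replicate 2 (adjusted p = 0.0599) or without replicate 2 of cytokines + NMMA (0.0913). Traf6 stood at 13.5 and 16.0 CPM untreated, 23.8 and 22.8 CPM with cytokines, and 15.9 and 17.3 CPM with cytokines + NMMA. It rose by 0.67 ± 0.14 with cytokines (0.00382), and with NMMA added its change was 0.17 ± 0.14 (0.418). Irak1 stood at 111 and 97.3 CPM untreated and 100.4 and 85.0 CPM with cytokines, ranges that overlap, and was not called (-0.17 ± 0.15, adjusted p = 0.392).

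**Figure D2:**
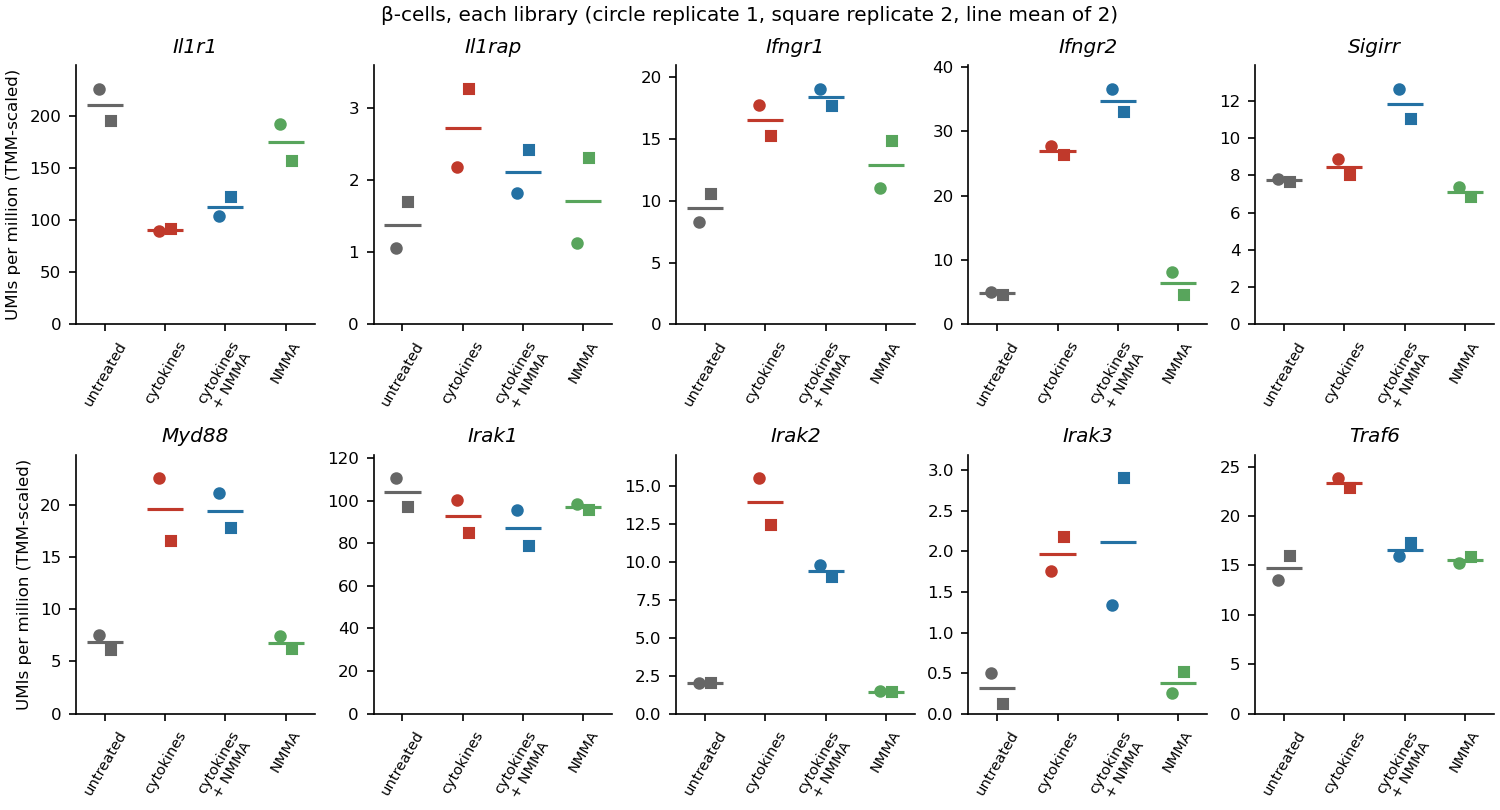
TMM-scaled CPM of the 10 members in β-cells of each library, by condition; circles are replicate 1, squares replicate 2 and lines the mean of 2. The cytokine libraries of Il1r1 lie between 89.7 and 122 CPM against 157 to 226 CPM without cytokines, and those of Ifngr2 between 26.4 and 36.6 CPM against 4.55 to 8.20 CPM.

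With cytokines + NMMA 7 of the 10 were called against untreated β-cells, with Sigirr in place of Traf6, beside 22.6% of all genes and a median log2 change of 0.81 for the 10. With the replicate block Irak1 was called too, at -0.26 ± 0.09 (adjusted p = 0.0330). The comparison of cytokines with cytokines + NMMA asks which changes depend on nitric oxide synthase. There 2 of 10 were called, beside 19.4% of all genes: Traf6, higher without the inhibitor by 0.49 ± 0.14 on the log2 scale (adjusted p = 0.0346), and Irak2, by 0.57 ± 0.17 (0.0440). With the replicate block 5 were called, since Il1r1 (-0.32 ± 0.11, adjusted p = 0.0328), Sigirr (-0.49 ± 0.14, 0.00914) and Ifngr2 (-0.37 ± 0.13, 0.0293) were added, all lower without the inhibitor. The other alternatives were fitted without that block. In them, leaving out any 1 of the 8 libraries left 0 or 1 call, and DESeq2 made none. By total UMIs the 2 calls were Il1r1 and Sigirr instead. That scaling moved the median of all genes to -0.22 and the higher among all calls from 46.6% to 14.6%. In the comparison of NMMA alone with untreated β-cells 0 of 10 members were called by edgeR and 0 by DESeq2, beside 0% of all genes, with 2 members at an unadjusted p under 0.05.

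The share of β-cells with a UMI of a member was read in cells thinned to 10000 UMIs. A UMI of Il1r1 was found in 83.8% and 75.2% of untreated β-cells of replicates 1 and 2 (exact 95% intervals 81.8 to 85.5% and 71.3 to 78.9%), 41.1% and 43.2% with cytokines (38.2 to 44.1% and 38.7 to 47.8%), 55.4% and 61.8% with cytokines + NMMA, and 76.6% and 74.3% with NMMA alone. Unthinned, the shares were 93.3% and 84.7% untreated and 62.5% and 62.7% with cytokines. For Ifngr2 they were 4.49% and 4.91% untreated, 20.7% and 18.9% with cytokines, and 27.9% and 27.2% with cytokines + NMMA, and for Irak2 2.59% and 2.16%, 11.4% and 12.5%, and 9.29% and 9.55%. The order of conditions was that of the CPM in each. Nos2, the marker of the response, was found in 46.9% and 45.3% of β-cells with cytokines and 67.0% and 59.6% with cytokines + NMMA, against 0.0632% and 0% untreated.

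**Figure D3:**
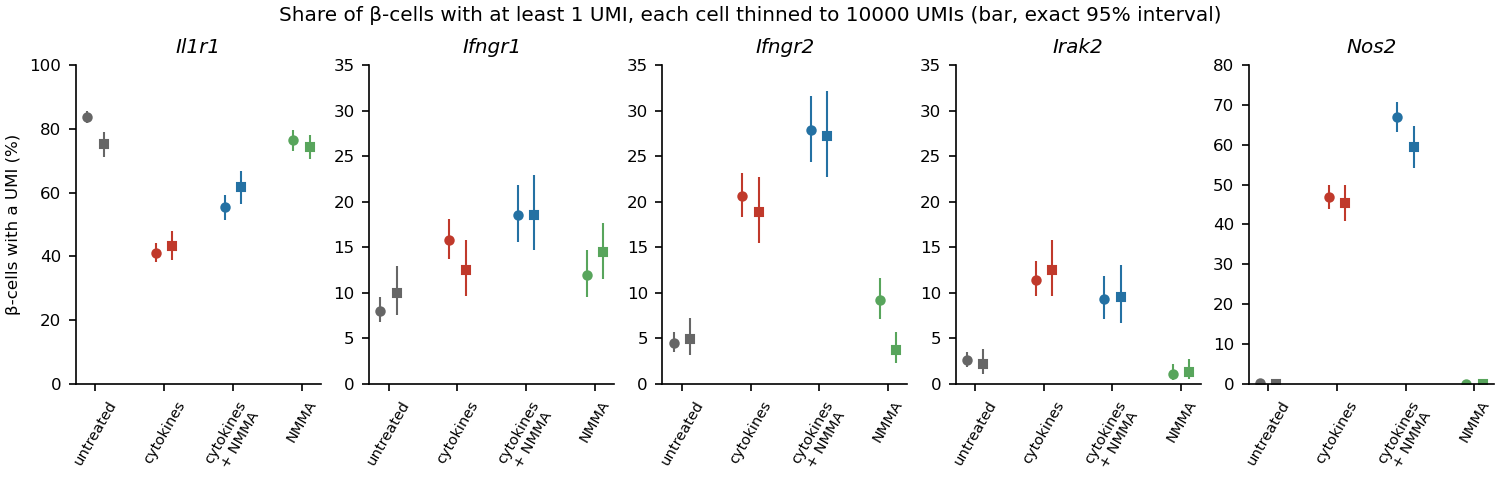
Share of β-cells, in percent, with at least 1 UMI of 4 members and of Nos2, each cell thinned to 10000 UMIs. Circles are replicate 1, squares replicate 2 and bars the exact 95% interval of counting error, and the y axes differ between panels. The share with Il1r1 falls from 75.2 to 83.8% to 41.1 to 43.2% with cytokines, while that with Ifngr2 rises from 4.49 and 4.91% to between 18.9% and 27.9% in the 2 cytokine groups.

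Since not every β-cell had Nos2, the members were also compared within the 4 cytokine libraries between thinned β-cells with and without a Nos2 UMI (518 and 586 cells in cytokines replicate 1, 214 and 258 in replicate 2, 418 and 206 with NMMA in replicate 1, 212 and 144 in replicate 2). Of 8 members tested, 3 were higher in the cells with Nos2, beside 7.77% of all genes. These were Irak2 (log2 difference 0.65 ± 0.20, adjusted p = 0.0410), Myd88 (0.56 ± 0.15, 0.0138) and Ifngr2 (0.58 ± 0.13, 0.00232). The ligand-binding chains were not called, with a difference of -0.10 ± 0.09 for Il1r1 (0.630) and 0.19 ± 0.15 for Ifngr1 (0.561). All 3 calls were lost with DESeq2 and without the library as replicate block.

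Of the pathway list, 15 of 26 tested genes rose in β-cells with cytokines and 1 fell, beside 23.8% and 22.5% of all genes, with a median log2 change of 0.70. Il1a, a ligand of IL1R1, had no UMI in either untreated library and 13 and 17 UMIs with cytokines, so no fold is given. Among those with the largest log2 change were Socs1, which blocks JAK signalling (5.34 ± 0.22), Zc3h12a, an RNase that degrades cytokine transcripts (4.81 ± 0.29), Tifa, which binds TRAF6 (3.45 ± 0.24), and Il1rn, the IL-1 receptor antagonist (3.19 ± 0.55). Il1r2, the decoy receptor for IL-1, was called as well. Map3k7, the kinase downstream of TRAF6, was the 1 that fell, by 0.44 ± 0.12. Il1a had no UMI in any β-cell library without cytokines and was tested only through the cytokine groups. The lists of related genes were chosen with earlier results of these data known, so their counts are a description only. Of the 14 other cytokine receptors 12 were tested, and 7 rose (Osmr, Csf2rb, Tnfrsf1b, Il13ra1, Tnfrsf1a, Il6st and Il10rb) while Il6ra and Lifr fell by 1.48 ± 0.16 and 1.05 ± 0.15, beside the same shares of all genes. The 5 genes that check the exposure (Nos2, Irf1, Gbp2, Cxcl10 and Nfkbia) all rose. Macrophage markers made up 0.00480 to 0.00722% of the UMIs of untreated β-cells, 0.00701 to 0.0125% with cytokines and 0.00939 to 0.0190% with cytokines + NMMA. Glucagon made up 0.0278% and 0.0365% untreated and 0.0199% and 0.347% with cytokines. The part of these differences in the β-cell results was not tested. Between cytokines and cytokines + NMMA, 2 of 26 genes of the pathway list were higher and 5 lower without the inhibitor, beside 9.04% and 10.4% of all genes. In the other classes the pathway list had 9 tested genes that rose of 20 in α-cells (12.8% of all genes rose), with 1 that fell, 7 of 15 that rose in δ-cells (3.38%), 4 of 16 in macrophages (3.82%), 7 of 17 in endothelial (4.58%) and 3 of 15 in mesenchymal cells (1.52%). Of the 5 response genes 2 to 5 rose in each of these classes.

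In α-cells Il1r1 fell with cytokines, and its level with cytokines + NMMA was close to that of untreated cells. It stood at 203 and 196 CPM untreated, 102 and 85.4 CPM with cytokines, 200 and 202 CPM with cytokines + NMMA, and 310 and 223 CPM with NMMA alone, so that the cytokine libraries alone were low. It fell by 1.1 ± 0.22 on the log2 scale with cytokines (adjusted p = 0.00135), differed by 0.01 ± 0.20 with cytokines + NMMA (0.993), and was lower by 1.11 ± 0.22 with cytokines than with cytokines + NMMA (0.00326). This pattern kept its call in the alternatives run. Whether the effect of NMMA on Il1r1 differs between α- and β-cells was not tested.

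Ifngr2 went from 5.70 and 11.9 CPM in untreated α-cells to 50.2 and 50.0 CPM with cytokines and 64.9 and 45.5 CPM with cytokines + NMMA, a rise of 2.44 ± 0.35 (adjusted p = 7.72e-05) and 2.58 ± 0.33 (2.39e-05). Irak3 stood at 4.98 and 1.04 CPM untreated, 6.08 and 6.92 CPM with cytokines and 7.83 and 19.1 CPM with cytokines + NMMA, and rose only with the inhibitor present (2.27 ± 0.65, adjusted p = 0.0373), a call lost without untreated replicate 2, without the second library of cytokines + NMMA and with DESeq2. It lay below the cutoff of the filter in every α-cell library but those with cytokines + NMMA, through which it was tested. Myd88 was at 12.8 and 7.25 CPM untreated, 7.60 and 8.46 CPM with cytokines, and 16.2 and 26.9 CPM with cytokines + NMMA. In α-cells 2 of 9 members tested were called with cytokines (22% of all genes), 2 with cytokines + NMMA (8.08%) and 1 between the 2 cytokine groups (11.1%). With the replicate block Myd88 was added to the last 2 of these, higher by 1.16 ± 0.35 with cytokines + NMMA than untreated (adjusted p = 0.0141) and lower by 1.40 ± 0.42 with cytokines than with cytokines + NMMA (0.0113). Insulin made up 1.06% and 1.92% of the UMIs of untreated α-cells, 4.60% and 6.42% with cytokines, 1.58% and 5.41% with cytokines + NMMA, and 0.810% and 5.74% with NMMA. 88.3% of the α-cells with cytokines were in subcluster 4 and 92.0% of those with cytokines + NMMA in subcluster 0. Subcluster 4 was led by the heat shock genes Hspa1a and Hspa1b, and the Hspa1 genes made up 0.240% and 0.151% of the UMIs of α-cells with cytokines, 0.0884% and 0.0115% with cytokines + NMMA, and 0.0162% and 0.00907% untreated. The part of these differences in the results was not tested. By total UMIs the median of all genes moved by -0.51 on the log2 scale for cytokines, with higher calls down from 58.3% to 19.1% of all calls, and the calls of Il1r1 and Ifngr2 were kept. For cytokines against cytokines + NMMA the shift was to -0.41 and from 51.2% to 12.3%, with Il1r1 called in both.

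δ-cells had 1 cytokine library only, with 11 cells, since replicate 1 held 8 and was left out, so its sum is taken to vary like the other groups. Ifngr2 stood at 15.2 and 11.6 CPM untreated, 72.1 CPM with cytokines and 46.0 and 45.5 CPM with cytokines + NMMA, and rose by 2.35 ± 0.56 (adjusted p = 0.0115) and 1.69 ± 0.39 (0.00487). Myd88 was at 11.7 and 0 CPM untreated, from 10 and 0 UMIs, 61.8 CPM with cytokines and 33.7 and 33.8 CPM with cytokines + NMMA, and rose by 2.92 ± 0.76 (0.0237) and 2.05 ± 0.56 (0.0196). Il1r1 did not follow β-cells in its values, with 88.6 and 69.5 CPM untreated, 77.3 CPM with cytokines and 90.9 CPM in both libraries with cytokines + NMMA. These 2 were the calls among 8 tested in both comparisons, where 5.23% and 9.86% of all genes changed, and DESeq2 called neither. With cytokines + NMMA, Myd88 was not called without untreated replicate 2 (adjusted p = 0.0705), nor Ifngr2 without untreated replicate 1 (0.0742). Between the cytokine groups 0 of 8 were called (0.158% of all genes), and 0 at an unadjusted p under 0.05. Ifngr2 and Myd88 lay below the cutoff of the filter in all untreated and NMMA libraries of δ-cells and were tested through the cytokine groups, but both calls were kept in both comparisons with no filter. Subcluster 2 held 99.1% of untreated δ-cells and subcluster 6 held 94.7% of those with cytokines and 100% with cytokines + NMMA. In the cytokine library glucagon made up 3.77% of the UMIs, insulin 4.44% and somatostatin, the hormone of δ-cells, 2.90%. In the untreated libraries glucagon made up 0.0300% and 0.0810%, insulin 0.836% and 1.81% and somatostatin 8.37% and 7.64%. Markers of pancreatic polypeptide cells made up 9.08 to 16.0% untreated and 2.92% in the cytokine library. The δ-cell markers made up 8.14 to 8.91% and 3.12%. The part of these differences was not tested.

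In macrophages Il1r1, Il1rap, Sigirr, Irak3 and Traf6 were below the filter, and Il1r1 had 0 to 10 UMIs per library. There 0 of 5 members tested were called with cytokines, where 4.62% of all genes changed, and 0 with cytokines + NMMA (6.46%), by edgeR and by DESeq2, with 1 and 3 members at an unadjusted p under 0.05. Ifngr2 stood at 122 and 105 CPM untreated, 96.8 and 98.5 CPM with cytokines and 165 and 84.9 CPM with cytokines + NMMA. The libraries with cytokines lay below the untreated ones, and those with cytokines + NMMA spanned both groups. Ifngr1 was at 83.2 and 96.4 CPM untreated, 49.5 and 49.2 CPM with cytokines and 61.8 and 28.3 CPM with cytokines + NMMA. All 4 cytokine libraries lay below the untreated ones, and with the replicate block the second difference was called (-1.104 ± 0.314, adjusted p = 0.0276), as was that of Irak1 (-1.05 ± 0.33, 0.0469). Myd88 was at 30.5 and 39.7 CPM untreated, 49.5 and 60.8 CPM with cytokines and 79.5 and 62.7 CPM with cytokines + NMMA, groups that do not overlap but were not called (0.436 and 0.103). Between the cytokine groups 0 of 5 were called (0.116% of all genes), with 1 at an unadjusted p under 0.05. Insulin made up 1.68% and 3.98% of the UMIs of untreated macrophages and 0.190% and 0.618% with cytokines. Cluster 14 held 98.2% of the untreated macrophages and cluster 18 held 65.2% of those with cytokines. The part of these differences in the results was not tested.

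In endothelial cells 3 of 8 members tested were called with cytokines, beside 6.33% of all genes. Il1r1 went from 67.4 and 35.2 CPM untreated to 9.92 and 8.60 CPM with cytokines, from 2 and 3 UMIs, and 15.4 and 18.1 CPM with cytokines + NMMA. It fell by 2.43 ± 0.57 (adjusted p = 0.0144) on the log2 scale. Irak3 rose from 17.3 and 8.45 CPM to 59.5 and 57.4 CPM (2.21 ± 0.49, 0.00905) and Myd88 from 42.4 and 40.8 CPM to 89.3 and 106 CPM (1.25 ± 0.33, 0.0310). Irak3 lay below the cutoff of the filter in all endothelial libraries without cytokines and was tested through those with them. Ifngr2, at 156 and 120 CPM untreated and 104 and 94.6 CPM with cytokines, was not called. None of the 3 was called without cytokines replicate 2, only Irak3 without untreated replicate 1 and only Il1r1 without untreated replicate 2. Without cytokines replicate 1 Il1r1 missed the threshold (0.0577), and DESeq2 called none. With cytokines + NMMA 1 of 8 was called, Myd88 (1.34 ± 0.33, 0.0158), beside 6.64% of all genes. It was lost without either untreated library or replicate 1 of cytokines + NMMA (adjusted p of 0.0759 to 0.0948), and with the replicate block 3 were, with Il1r1 at -1.46 ± 0.47 (adjusted p = 0.0427) and Irak3 at 1.68 ± 0.48 (0.02). Scaled by total UMIs, which moved the median of all genes by -0.22 with cytokines and -0.26 with cytokines + NMMA, Myd88 was called in neither comparison and higher calls went from 72.4% to 55.7% and from 75.7% to 54.7% of all calls. Between the cytokine groups 0 of 8 were called (0% of all genes by edgeR, 0 members by DESeq2 and 0 at an unadjusted p under 0.05). Cluster 20 held 97.4% of the endothelial cells with cytokines and 100% with cytokines + NMMA, and cluster 15 all of the others, with 15 and 23 cells per library with cytokines.

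In mesenchymal cells 0 of 7 members tested were called with cytokines (1.64% of all genes) or with cytokines + NMMA (1.8%), by edgeR and by DESeq2, with 2 at an unadjusted p under 0.05 in each. Il1r1 stood at 149 and 75.3 CPM untreated, 43.5 and 28.5 CPM with cytokines, 37.2 and 22.0 CPM with cytokines + NMMA, and 109 and 73.0 CPM with NMMA alone. The cytokine libraries lay below all others, at a log2 difference of -1.68 ± 0.52 (adjusted p = 0.224) and, with NMMA added, -1.94 ± 0.52 (0.124). With the replicate block the latter was called (-1.88 ± 0.42, adjusted p = 0.0235). Insulin made up 4.26% and 0.532% of the UMIs of untreated mesenchymal cells and 0.206% and 0.273% with cytokines, and 0.657% and 6.04% with NMMA alone. Ductal markers made up 0.202 to 0.286% untreated and 0.00586 to 0.0240% with cytokines. Schwann cell markers made up 0.0877 to 0.137% and 0.0976 to 0.346%. The mesenchymal markers themselves made up 0.476 to 0.890% and 0.272 to 0.477%. The part of these shifts in the mesenchymal results was not tested. Irak3 was at 0 and 19.4 CPM untreated and 94.3 and 38.0 CPM with cytokines, from 0 and 8 and from 13 and 12 UMIs (2.47 ± 0.96, 0.404). Between the cytokine groups 0 of 7 were called (0% of all genes by edgeR, 0 members by DESeq2 and 0 at an unadjusted p under 0.05).

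**Figure D4:**
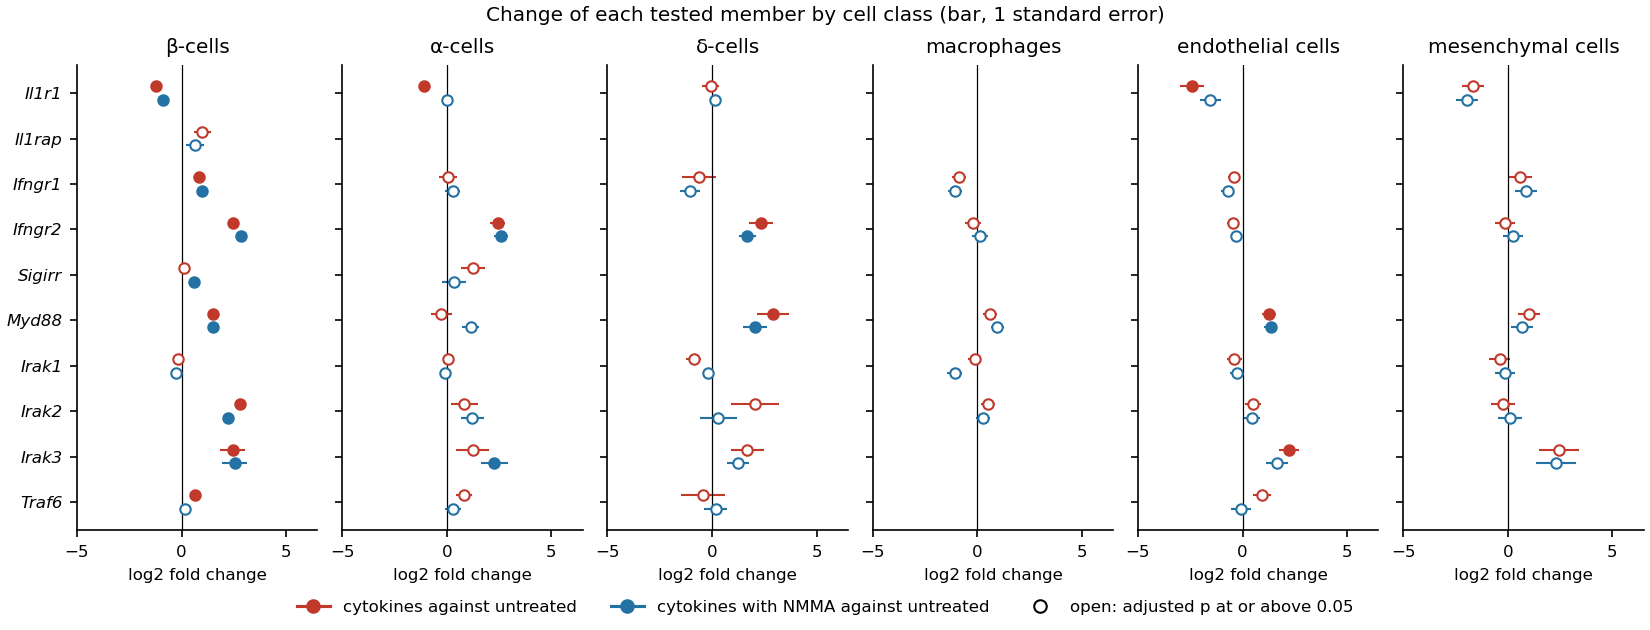
Log2 fold change of each tested member against untreated cells in 6 classes, red for cytokines and blue for cytokines + NMMA, with bars of 1 standard error. Filled points passed an adjusted p under 0.05 and open ones did not, and members without a point were below the filter in that class. Ifngr2 lies near 2.5 in β- and α-cells and near 0 in the 3 non-endocrine classes, and Il1r1 lies left of 0 with cytokines in β-cells, α-cells, endothelial and mesenchymal cells.

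NMMA alone changed no member in any class by edgeR or DESeq2, beside 0% of all genes tested in α-cells, macrophages, endothelial and mesenchymal cells and 0.0121% in δ-cells, and the only member outside β-cells at an unadjusted p under 0.05 was Il1r1 in endothelial cells (-0.84 ± 0.40 on the log2 scale).

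Whether the change with cytokines differed from that in β-cells was tested directly, with 10 members tested in each class. In macrophages 4 were called, each a smaller rise or a change in the other direction, beside 4.4% of all genes. They were Ifngr2 by -2.48 ± 0.36 (difference of log2 changes, adjusted p = 2.32e-09), Irak2 by -2.08 ± 0.48 (0.000943), Ifngr1 by -1.46 ± 0.41 (0.0137) and Irak3 (0.0279). No size is given for Irak3, which had 0 and 1 UMIs in macrophages with cytokines, was below the filter there, and entered this fit through the groups where it was high. In endothelial cells 3 were called, beside 6.27%: Ifngr2 by -2.80 ± 0.33 (4.34e-15), Irak2 by -2.06 ± 0.48 (0.000866) and Ifngr1 by -1.07 ± 0.36 (0.0444). In mesenchymal cells 2 were called, beside 2.16%: Ifngr2 by -2.50 ± 0.50 (0.000138) and Irak2 by -2.83 ± 0.80 (0.0238). In α-cells 1 was called, beside 3.88%: Myd88 by -1.68 ± 0.49 (0.0387), while Il1r1 and Ifngr2 differed by 0.14 ± 0.21 and 0.03 ± 0.37 (0.808 and 0.989). With DESeq2 the calls of Ifngr1 in macrophages (adjusted p = 0.104) and endothelial cells (0.132) were lost. So was that of Irak2 in mesenchymal cells (0.0635). DESeq2 did not call Irak3 in macrophages or Myd88 in α-cells either. In δ-cells 0 were called by edgeR and by DESeq2 (0.908% of all genes), with 3 at an unadjusted p under 0.05, in a fit where the median of all genes was -0.29. The change of Il1r1 was not called as different from that in β-cells in any class, at differences of -1.08 to 1.16 on the log2 scale. The lack of a call does not show a shared fall. In δ-cells Il1r1 stood at 88.6 and 69.5 CPM untreated and 77.3 CPM with cytokines, and macrophages with cytokines had 2 UMIs of it.

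**Figure D5:**
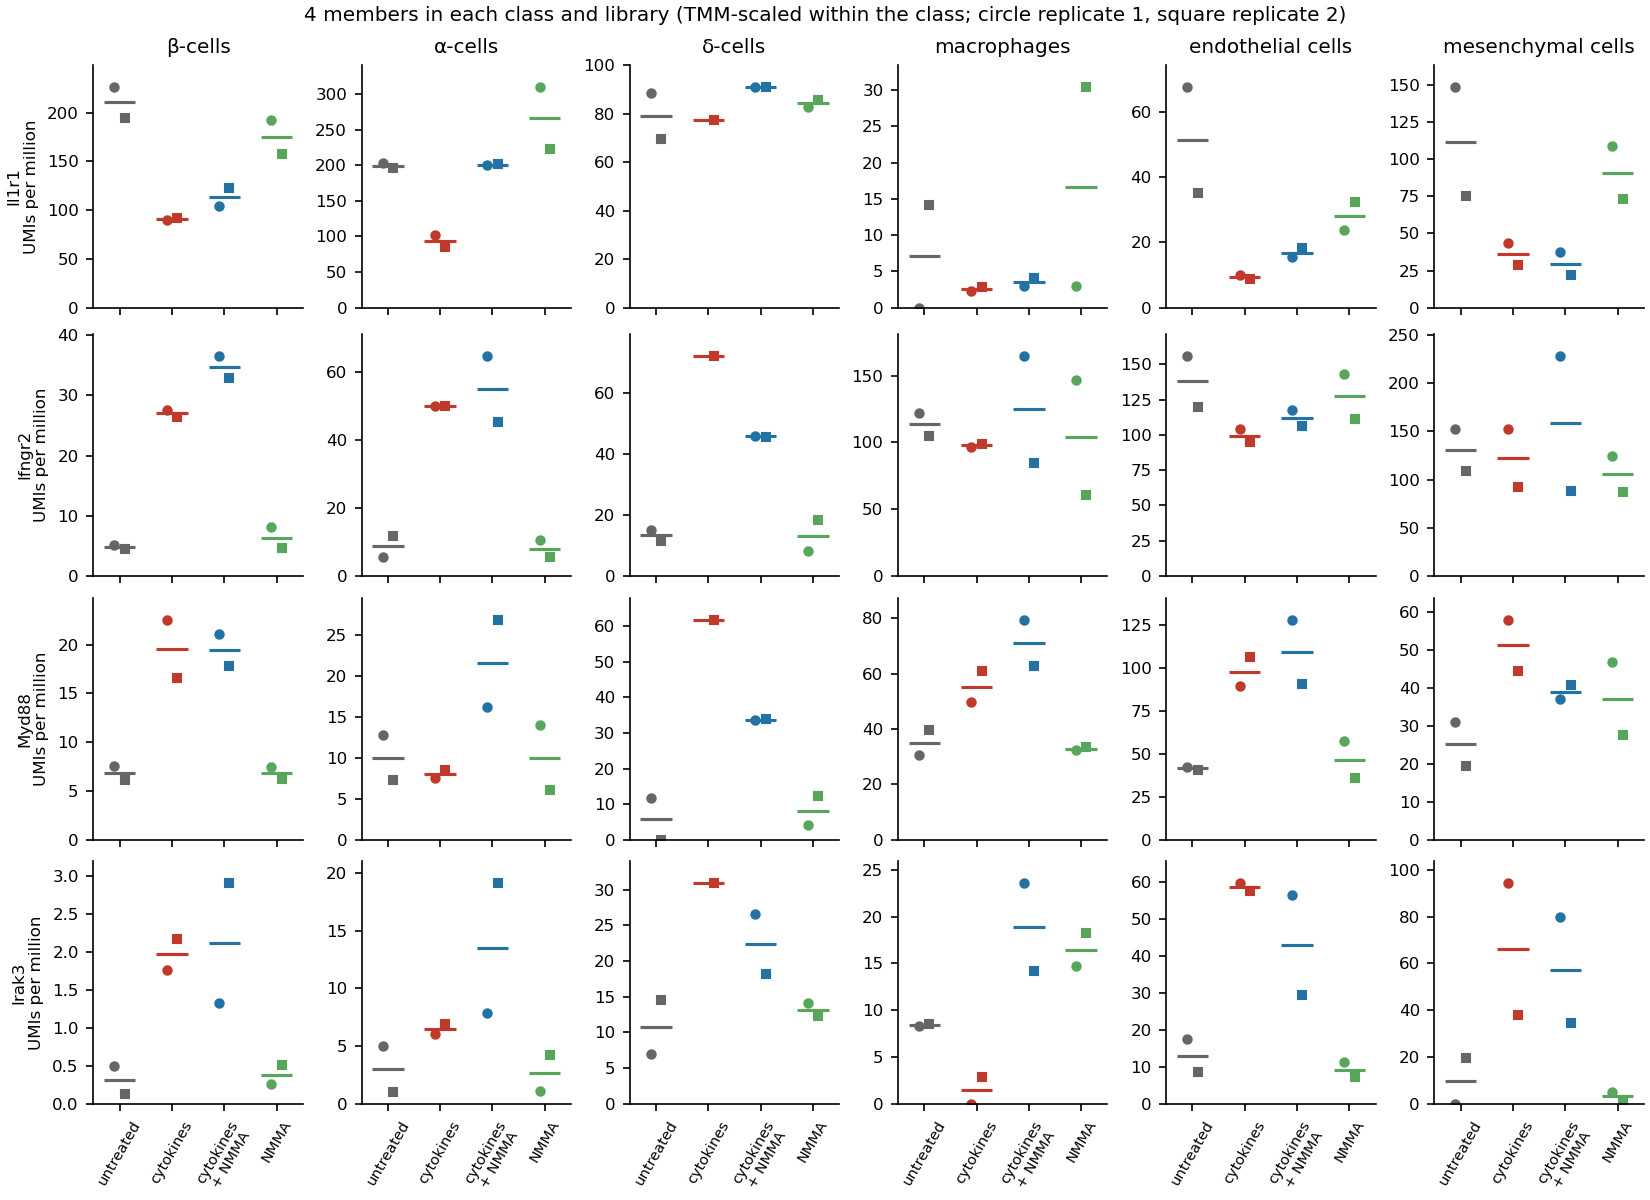
Level of Il1r1, Ifngr2, Myd88 and Irak3 in each library, by class (columns) and condition, as CPM scaled within the class. Circles are replicate 1, squares replicate 2 and lines the mean, and y axes differ between panels. With cytokines Ifngr2 goes from 4.55 to 11.9 CPM untreated to 26.4 to 50.2 CPM in β- and α-cells and stands at 94.6 and 104 CPM in endothelial cells, against 120 and 156 CPM untreated.

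Over the 24 means of 6 classes by 4 conditions, the genes whose log2(CPM + 1) ran closest to each member, among 9995 genes that reached 20 CPM in 1 class or more, are given as a description. The points share libraries and scaling, and the δ-cell cytokine mean is 1 library. For Il1r1 they were Gbf1 (r = 0.947), Lrfn3 (0.938) and 2310039H08Rik (0.936). For Ifngr2 they were Clic1 (0.946), Tnfaip2 (0.942) and Cast (0.919), and for Ifngr1 Gna12 (0.951), Inpp4b (0.933) and Ppp1r18 (0.931). For Myd88 they were Lgals9 (0.916), Dram1 (0.914) and Sp100 (0.901), for Irak2 Actb (0.939), Fam96b (0.930) and Cfl1 (0.926), and for Irak1 Bcl9 (0.945), Deptor (0.934) and mt-Co2 (0.930). The best r was lower for Sigirr (Tgoln1, 0.832), Il1rap (Vcan, 0.801), Traf6 (Fam219a, 0.792) and Irak3 (Trim12a, 0.751).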

How the data were processed

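Raw UMI counts, 1 matrix of genes by barcodes for each of 8 libraries, were deposited by the authors from Cell Ranger, version 3.0.0 for replicate 1 and 6.0.0 for replicate 2 per the file headers, and mm10 per the labels. The kit version differs between the labels and the study's methods. The members and lists were chosen with earlier results of these data known. The study's filter was applied: barcodes were kept with 200 genes or more, a mitochondrial share of 10% or less, and no more than 5500 genes in the first pool and 6500 in the second. The 30406 genes listed for every library held at least 99.7% of the UMIs. Clustering used 2000 variable genes, 30 principal components, 20 neighbours and Leiden at resolution 1 (scanpy 1.11.5, leidenalg 0.10.2, Python 3.11.15), with endocrine clusters other than β clustered again. Clusters were named from fixed markers and hormone levels, and each cluster used held at least 5 of its own class's markers. By marker score, δ subclusters 2 and 6 came nearest to pancreatic polypeptide cells and α subcluster 4 to lymphocytes. Their highest hormone was somatostatin in the δ subclusters and glucagon in the α one. In subcluster 4 glucagon made up 14.6% of the UMIs and insulin 10.0%. Doublets were scored (100 cells, 0.919%), kept, and removed as an alternative.

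Raw counts were summed per class and library with at least 10 cells and fitted with edgeR 4.0.16 under R 4.3.3. Low genes were removed by filterByExpr, libraries scaled by TMM, and the robust quasi-likelihood F test used with Benjamini-Hochberg adjustment over all genes tested, the 4 conditions in 1 fit. The comparisons between classes and between cells with and without Nos2 had the library as a term. The method was tested on simulated data with known changes. Same-numbered libraries come from 1 pool of islets, and their deviations from the group means correlated at 0.797 to 0.896 in β-cells, 0.422 to 0.585 in α-cells, 0.371 to 0.432 in δ-cells, 0.341 to 0.450 in macrophages, 0.247 to 0.462 in endothelial cells and 0.0719 to 0.390 in mesenchymal cells. The 2 pools are the only replication, and errors given are standard errors of log2 changes unless named SD. The text names the 10 members, the 6 called pathway genes with the largest change in β-cells except 1 that is not reported here, the called receptors and response genes, and for each member the genes most like it. Map3k7 and Il1r2 were named after their values were seen. Summed UMIs per class and library ranged from 11500373 to 35185010 in β-cells and from 116823 to 1944762 in the others, so low genes are less certain there. RLE size factors, total UMIs, no filter, DESeq2 1.42.0, the replicate block, a minimum of 5 cells, doublets removed and leaving out each library were tried.

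Exons of Irak3, Myd88, Il1rap and Irak2 overlap a gene on the opposite strand in the annotation used. Positions are from a GRCm38 annotation.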

Additional observations from a re-analysis of the deposited data

Results flagged for a closer look

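The change with cytokines differed from that in β-cells, by the test of the difference itself (edgeR, Benjamini-Hochberg adjusted), for 10 member results. Of all genes tested 3.88% differed in α-cells, 4.4% in macrophages, 6.27% in endothelial cells and 2.16% in mesenchymal cells. In α-cells Myd88 differed by -1.68 on the log2 scale. In macrophages the differences were -2.08 for Irak2, -1.46 for Ifngr1, -5.20 for Irak3 and -2.48 for Ifngr2. The value of Irak3 rests on 0 and 1 UMIs in macrophages with cytokines and is no measure of size. It entered that fit through the groups where it was high. In endothelial cells they were -2.06 for Irak2, -1.07 for Ifngr1 and -2.80 for Ifngr2, and in mesenchymal cells -2.83 for Irak2 and -2.50 for Ifngr2. Every one of these 10 is a smaller rise than in β-cells or a change the other way. DESeq2 did not call Myd88 in α-cells, Ifngr1 and Irak3 in macrophages, Ifngr1 in endothelial cells or Irak2 in mesenchymal cells. The share of insulin among the UMIs of macrophages was 1.68% and 3.98% untreated and 0.190% and 0.618% with cytokines, and its part in these differences was not tested.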

How the results depend on the processing

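Of 68 called member results, all 68 kept their direction in every alternative that gave a value, and 42 kept their call in each, while 26 lost it in 1 or more. With cytokines, the calls of Il1r1, Ifngr2, Irak2, Irak3, Myd88 and Traf6 in β-cells and of Il1r1 and Ifngr2 in α-cells held in every setting run. Counts of members called that moved by more than 1.5 times were these, with cytokines meaning cytokines against untreated. Without a filter on low counts the count was 0 (in place of 2) in β-cells for cytokines against cytokines + NMMA, 2 (1) in α-cells for the same, 3 (1) in endothelial cells for cytokines + NMMA, 1 (0) in mesenchymal cells for cytokines and for cytokines + NMMA, and 5 (3) in untreated α- against β-cells. With DESeq2 it was 0 (2) in β-cells for cytokines against cytokines + NMMA, 1 (2) in α-cells for cytokines + NMMA, 0 (2) in δ-cells for cytokines and for cytokines + NMMA, 0 (3) and 0 (1) in endothelial cells for the same, 0 (3) between β-cells with and without Nos2, and 0 (1), 2 (4) and 1 (2) for the difference from β-cells in α-cells, macrophages and mesenchymal cells. With the replicate block it was 5 (2) in β-cells and 2 (1) in α-cells for cytokines against cytokines + NMMA, and 2 (0), 3 (1) and 1 (0) in macrophages, endothelial and mesenchymal cells for cytokines + NMMA. The block also added Il1rap and Irak1 in β-cells and Myd88 in α-cells and changed no other call. Without the replicate block the untreated α- against β-cells gave 1 (3) and the Nos2 comparison 0 (3). With total UMIs it was 2 (1) in α-cells for cytokines against cytokines + NMMA and, chosen after seeing the data, 4 (2) in untreated δ- against β-cells, where that scaling moved the median of all genes by 0.55. Removing doublets left 1 (2) in β-cells for cytokines against cytokines + NMMA. Leaving out 1 library gave 6 to 7 in β-cells for cytokines, 5 to 7 for cytokines + NMMA and 0 to 1 for cytokines against cytokines + NMMA, 1 to 2 in α-cells for cytokines + NMMA and for cytokines against cytokines + NMMA, 1 to 2 in δ-cells for cytokines + NMMA, 0 to 1 in macrophages for cytokines + NMMA, 0 to 3 in endothelial cells for cytokines and 0 to 1 for cytokines + NMMA. The cause of these moves was not tested. With 2 libraries a group and few cells outside β-cells, Il1r1, Il1rap, Sigirr, Irak3 and Traf6 were below the filter in 1 or more classes. Of 58 called results run with no filter 55 were kept.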
